A study of Homo sapiens with 12 samples.

Results

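The comparison described here set NCCIT cells in which LTR5HS elements were targeted for activation directly against NCCIT cells in which the same elements were targeted for repression. It rested on 4 of the 12 libraries of the series, chosen by their labels: LTR5HS Sp dCas9-VPR, replicates 1 and 2, and LTR5HS Sp dCas9-KRAB, replicates 1 and 2. NCCIT, an established line of human embryonal carcinoma, was used throughout. All 6 lines of the series carried a doxycycline-inducible Streptococcus pyogenes dCas9 fusion and a guide array, both brought in by PiggyBac transposition, and all were kept in doxycycline for 4 days. Guides of the LTR5HS Sp array complex with the fusion and take it to LTR5HS, whereas the LTR5HS Sa array carries a Staphylococcus aureus scaffold that does not complex with this dCas9, and the nontarget Sp array has no genomic target. The 8 libraries with the last 2 arrays, 4 per fusion, are called control and were used to mark genes that also differ between the fusions without recruitment. Each line was a selected population made from a parental line of its fusion, so the fusion and the parental line cannot be told apart in any comparison of dCas9-VPR with dCas9-KRAB.

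LTR5HS is the youngest class of long terminal repeat of the endogenous retrovirus HERVK. It is active in early human embryos, in naive but not primed embryonic stem cells, and in embryonal carcinoma cells. A long terminal repeat holds promoter and enhancer sequence, so that a copy near a gene can act on that gene. VPR is a fusion of transcriptional activation domains, and KRAB is a repression domain that brings the cofactor TRIM28 and H3K9 methylation to the place where it binds.

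The array holds 12 guides, which were matched over 16 bases to GRCh38. An NGG motif had to follow the match, since S. pyogenes Cas9 binds only beside it. This gave 2938 matches, and 648 places held matches of at least 2 different guides within 1000 bp of each other. These 648 are called predicted array sites; they are sequence matches and not measured binding. Guide LTR5HS-8 matched at 81.6% of the sites, LTR5HS-7 at 73.1% and LTR5HS-9 at 65.9%, and no site held more than 7 guides. All matches at the sites beside PCAT14, a long non-coding RNA gene on chromosome 22, and GBP1, which encodes an interferon-inducible GTPase on chromosome 1, are shown because these genes were among those with the widest spans. Capitals mark the NGG motif, and each sequence is written 5′ to 3′ on the strand given, in GRCh38.
PCAT14, LTR5HS-8, plus strand, chr22:23536480-23536498: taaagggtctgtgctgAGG
PCAT14, LTR5HS-9, minus strand, chr22:23536567-23536585: gacattccattgcccaGGG
PCAT14, LTR5HS-3, plus strand, chr22:23536630-23536648: aaaactgccttagggcTGG
PCAT14, LTR5HS-6, minus strand, chr22:23536820-23536838: taccatctcggagaggGGG
PCAT14, LTR5HS-10, minus strand, chr22:23536922-23536940: atagagaaagaaaagtGGG
GBP1, LTR5HS-1, minus strand, chr1:89067014-89067032: tactaagggaactcagAGG
GBP1, LTR5HS-9, plus strand, chr1:89067305-89067323: gacattccattgcccaGGG
GBP1, LTR5HS-8, minus strand, chr1:89067394-89067412: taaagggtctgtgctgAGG
GBP1, LTR5HS-4, minus strand, chr1:89067407-89067425: agcccgacacccgtaaAGG
GBP1, LTR5HS-7, plus strand, chr1:89067487-89067505: aaccttggacaataccTGG
The centre of the PCAT14 site lay 0.189 kb upstream of the annotated start of the gene, and that of the GBP1 site 2.05 kb upstream. Distances below run from the start of a gene to the centre of its nearest site.

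The 4 libraries held 18327167 and 19266257 counts with dCas9-VPR and 18097318 and 15428456 with dCas9-KRAB, and the control libraries held between 13601701 and 69797411. A count of 3, used as the floor below, corresponded to between 0.160 and 0.202 CPM (CPM is a gene's count divided by the TMM-scaled size of its library, on the usual scale) in the 4 libraries. Pearson's r of log2 CPM between replicates was 0.991 with dCas9-VPR and 0.99 with dCas9-KRAB, across genes, which are not independent replicates. Markers of embryonal carcinoma were detected in all 4 libraries, with a summed level of 1090 to 1120 CPM with dCas9-VPR and 4330 to 4620 CPM with dCas9-KRAB. In control the same 8 markers summed to 1020 to 1620 CPM with dCas9-VPR and 4510 to 5560 CPM with dCas9-KRAB. All 8 were lower with dCas9-VPR in the direct contrast. Markers of fibroblasts summed to 2920 to 3050 CPM with dCas9-VPR recruitment and 12.3 to 19.4 CPM with dCas9-KRAB recruitment. COL1A1, a collagen gene, had 2870 and 2990 of these CPM with dCas9-VPR (log2 difference 8.81, and 2.86 in control), while DCN had 0 CPM in both dCas9-VPR libraries and COL1A2 had 0.0551 and 0.266 CPM. PDGFRB, a receptor gene of fibroblasts and pericytes, had 40.9 and 49.2 CPM with dCas9-VPR against 1.74 and 1.62 CPM (log2 difference 4.75). COL3A1 had 10.6 and 5.85 CPM against 5.51 and 2.63 CPM (edgeR adjusted p 0.0602), and LUM was lower with dCas9-VPR (log2 difference -3.11). Endothelial markers summed to 34 to 34.9 against 7.76 to 7.92 CPM, and blood, hepatocyte and skeletal muscle markers summed to at most 5.73 CPM, with HBB at 0 in the 4 libraries. The part of any other cell type in the results was not tested.

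One control library stood apart for genes described below. LTR5HS Sa dCas9-VPR replicate 1 had more CPM than each of the other 3 dCas9-VPR control libraries for 7 of the 10 genes highest with activation. HPGD had 95 counts there against 15 to 16 in the others, GBP1 27 against 1 to 3, FUT7 16 against 0 to 3 and ADAM28 11 against 1 to 2. These levels were between 0.309% and 1.16% of the mean with dCas9-VPR recruitment, and the cause was not tested. Over all genes, leaving this library out gave 7743 calls in control, 5330 calls shared with control and 3213 interactions, beside 8488, 5658 and 3505 with it.

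The direct contrast spanned most of the measured transcriptome. Of 15960 genes tested, 8642 (54.1%) passed an adjusted p of 0.05 (edgeR, quasi-likelihood F-test, Benjamini-Hochberg; n = 2 libraries per group). Of these, 4450 (27.9% of those tested) were higher and 4192 (26.3%) lower with dCas9-VPR. More than 2-fold differences were found for 2935 of the higher and 1994 of the lower genes. The widest differences were mostly on the activated side: 285 genes were higher by over 5 on the log2 scale and 60 were lower by as much. With genes at 0 counts in both libraries of an arm set to their lower bound, these numbers were 210 and 52. Genes with any count in an arm kept their fitted values. At most 3 counts were found in each dCas9-KRAB library for 316 of the higher genes, and in each dCas9-VPR library for 85 of the lower genes. The median log2 difference over all tested genes was -0.00198, and the median of its size was 0.621.

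The control lines differed between the fusions to a like extent. Among 15448 genes tested in control, 8488 (54.9%) passed the same threshold (n = 4 libraries per group), 4202 (27.2%) higher and 4286 (27.7%) lower with dCas9-VPR. The median size of the log2 difference was 0.441. Of the 8642 genes of the direct contrast, 5658 (65.5%) were also called in control, 5227 in the same direction and 431 in the opposite one. Another 2425 were tested in control and not called there, and 559 were not tested there. The difference between both contrasts was tested as an interaction of recruitment and fusion over all 12 libraries. It passed the threshold for 3505 of 16673 genes (21%), with 1916 (11.5%) positive and 1589 (9.53%) negative. Of the genes called in the direct contrast, 2854 (33%) had such an interaction: 1655 of the higher genes (37.2%) and 1199 of the lower genes (28.6%). For the remaining genes the direct difference was not shown to differ from that in control. Each recruitment group was a selected line of its own, so the interaction cannot tell recruitment from a difference between lines.

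**Figure D1:**
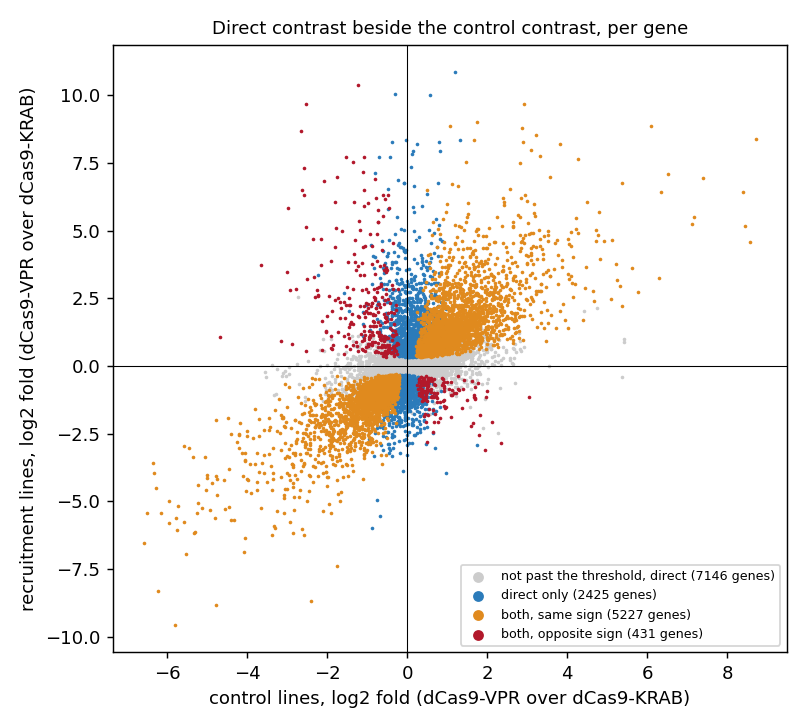
Each point is 1 of 15229 genes tested in both contrasts, with the log2 fold of dCas9-VPR over dCas9-KRAB in the control lines on the x axis and in the recruitment lines on the y axis. The 5227 genes called in both with the same sign lie along the diagonal, and the 431 with opposite signs include a group at high values on the y axis and below 0 on the x axis.

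Genes that were not called in control separate by direction. There were 1679 such genes among the higher ones, with a median log2 difference of 1.64, and 1155 of them were over 2-fold. Among the lower ones there were 1305, with a median of -0.852, and 524 of them were over 2-fold. These numbers include 477 higher and 82 lower genes that were not tested in control. Since these medians are over genes that passed the test, they describe the called genes and not all genes.

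The genes highest with activation were nearly silent with repression, and their levels in control were low too. Over the 285 genes higher by over 5 on the log2 scale, control libraries summed to 3.69% to 5.89% of dCas9-VPR recruitment. The dCas9-KRAB recruitment libraries summed to 0.826% and 1.07% of it. CST1, which encodes the secreted cysteine protease inhibitor cystatin SN, had 1353 and 1130.3 CPM with dCas9-VPR and 1.18 and 0.0675 CPM with dCas9-KRAB. Its log2 difference was 10.86 (SE 0.46, edgeR adjusted p 2.24e-06). Each dCas9-VPR library lay far above each dCas9-KRAB library and above all control libraries. In control, CST1 averaged 3.37 CPM with dCas9-VPR and 1.48 CPM with dCas9-KRAB (edgeR adjusted p 0.276), and the interaction was 9.66. LTR5HS Sa dCas9-VPR replicate 1 held 242 CST1 counts, against 12 to 26 in the other 3 dCas9-VPR control libraries. Without it the log2 difference in control turned to -0.68 (edgeR adjusted p 0.394) and the interaction was 11.58.

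HPGD, which encodes the enzyme that inactivates prostaglandins, had 382 and 346 CPM with dCas9-VPR against 0.562 and 0.0675 CPM with dCas9-KRAB. GBP1 had 194 and 148 CPM against 0.169 and 0 CPM. FUT7, a fucosyltransferase that makes selectin ligands, had 173 and 286 CPM against 0.169 and 0 CPM. In all 3 genes both dCas9-VPR libraries lay far above both dCas9-KRAB libraries, with log2 differences of 10.06 (HPGD), 10.77 (GBP1) and 11.19 (FUT7). HPGD was not called in control (edgeR adjusted p 0.663), but without LTR5HS Sa dCas9-VPR replicate 1 it was, at -1.38 (edgeR adjusted p 0.00482). SP7, a transcription factor of bone-forming cells, had 61.3 and 70.6 CPM against 0.0562 and 0 CPM, and ADAM28, a membrane metalloprotease, 74.3 and 77 CPM against 0.112 and 0 CPM. BCRP3, a pseudogene whose copies may share reads, had 33.3 and 44.3 CPM against 0 and 0.0675 CPM. GBP1, FUT7, SP7, ADAM28 and BCRP3 had at most 3 counts in each dCas9-KRAB library, so the size of their log2 differences is uncertain.

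Among tested genes, 83 had no count at all with dCas9-KRAB recruitment, so that only a lower bound of their fold can be given. SPHKAP, which encodes an anchoring protein of protein kinase A, had 20.7 and 19.8 CPM with dCas9-VPR and 0 with dCas9-KRAB, at least 109-fold higher against the floor of 3 counts per library. KRTAP5-8, a keratin-associated protein gene, had 15.7 and 15.6 CPM against 0, at least 84.4-fold higher. CST4 was at least 52.9-fold higher and CST5 at least 12.2-fold higher. Of the 10 genes highest with activation, only CST1, HPGD and BCRP3 passed the filter on low counts in control. SPHKAP, KRTAP5-8, FUT7, SP7, GBP1, CST2 and ADAM28 were not tested there, and neither were CST4 and CST5. SP7 averaged 1.06 CPM in dCas9-VPR control and 0.103 CPM in dCas9-KRAB control.

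The genes lowest with activation were taken from called genes with a mean of at least 5 CPM that were not called in control. SHISA3, which encodes a membrane protein that dampens WNT and FGF signalling, had 0.937 and 0.957 CPM with dCas9-VPR and 13.7 and 15.7 CPM with dCas9-KRAB. Its log2 difference was -3.93 (SE 0.25, edgeR adjusted p 1.22e-05). In control it averaged 12.4 CPM with dCas9-VPR and 6.5 CPM with dCas9-KRAB, so that the recruitment libraries of dCas9-VPR lay below both means and those of dCas9-KRAB above them. LOC101929224, an uncharacterised gene, had 0.441 and 0.16 CPM, the second at the floor of 3 counts, against 15.6 and 12.6 CPM, and here it was the dCas9-KRAB recruitment libraries that stood high, since control averaged 0.531 and 0.876 CPM. THRB, the thyroid hormone receptor beta gene, had 2.26 and 1.81 CPM against 15.8 and 13.5 CPM, with control means of 4.83 and 6.17 CPM between them. IL16, HDAC9 (a histone deacetylase gene), TAGLN3, GADD45G (a stress response gene), RND1, C1QL4 and IGIP had log2 differences between -3.10 and -2.61. Of these 10 genes, LOC101929224 had no annotated position, and no other started within 200 kb of a predicted array site.

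**Figure D2:**
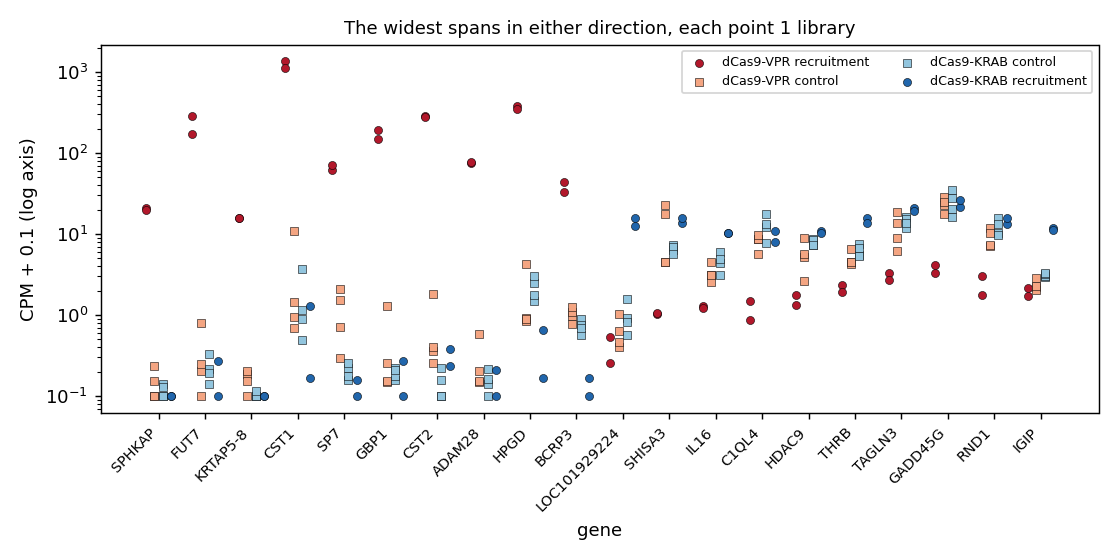
CPM + 0.1 on a log axis for the 10 genes highest and the 10 lowest with dCas9-VPR that were not called in control, each point 1 library. The dCas9-VPR recruitment libraries of the first 10 genes lie above all other libraries, whereas for the last 10 genes the groups lie closer together.

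Genes near predicted array sites differed in 1 direction. Of 163 tested genes that start within 10 kb of a site, 141 (86.5%, 95% Wilson interval 80.4% to 90.9%, counting error only) were higher with dCas9-VPR and 2 (1.23%) lower, beside 27.9% and 26.3% of all tested genes. Between 10 and 50 kb, 344 of 481 (71.5%) were higher and 32 (6.65%) lower. Between 50 and 200 kb, 552 of 1318 (41.9%) were higher and 193 (14.6%) lower. Beyond 1000 kb the shares were 22.9% and 30.2% of 9279. The median log2 difference fell with distance, from 2.24 within 10 kb to 1.29, 0.34, 0.01 and -0.11 in the bands to 50, 200, 1000 and over 1000 kb. Neighbouring genes can share a site, so they are not independent. The filter on low counts admits a gene through either arm alone. A silent gene near a site was therefore tested only if an arm raised it, and 147 of the 163 genes were also tested in control. Shares and medians by distance describe tested genes and can lie above those over all genes near sites.

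In control, among the genes also tested there, the direction near sites was turned round. Of 147 genes tested in control within 10 kb of a site, 15 (10.2%) were higher with dCas9-VPR and 70 (47.6%) lower, with a median of -0.30. Between 10 and 50 kb the control shares were 19.6% and 33.9%, and between 50 and 200 kb 25.8% and 26.5%. Beyond 1000 kb they were 27.8% and 28.8%. The interaction passed the threshold for 92.2% of the higher genes within 10 kb, 82.8% between 10 and 50 kb, 49.6% between 50 and 200 kb and 26% beyond 1000 kb.

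Within 50 kb, 485 of 644 genes (75.3%) were higher and 34 (5.28%) lower, with a median of 1.52. Sites upstream of the start and sites downstream of it gave like values: 75.8% of 397 genes and 74.5% of 247, with medians of 1.52 and 1.53. By the number of guides matching at the nearest site, the share was 64% of 125 genes for 2 guides, 71.8% of 85 for 3, 75.6% of 156 for 4, 75.9% of 133 for 5 and 86.2% of 145 for 6. These shares are a description, and no test of a trend was run.

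**Figure D3:**
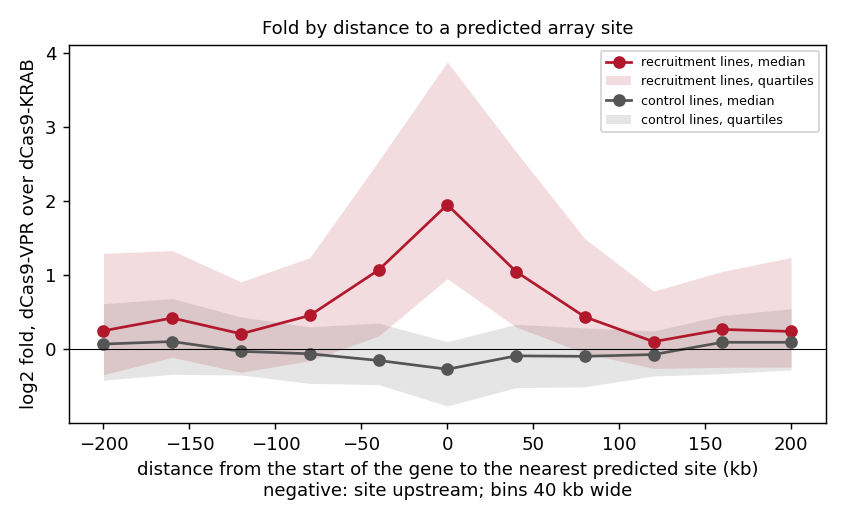
Median log2 fold of dCas9-VPR over dCas9-KRAB (line) and quartiles (band) in bins 40 kb wide by the distance from the start of a gene to its nearest predicted site, for recruitment and for control lines. The recruitment median was 1.95 in the bin at 0 and fell to 0.21 and 0.11 in the bins at -120 and 120 kb, while the control median at 0 was -0.27.

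Not every gene near a site passed the test. RPS14, a ribosomal protein gene with a site 4.48 kb upstream, had 1035 and 928 CPM with dCas9-VPR against 946 and 914 CPM with dCas9-KRAB (log2 0.09, edgeR adjusted p 0.556). RPL8, another ribosomal protein gene, had a log2 difference of 0.26 (edgeR adjusted p 0.104). FUBP1 and PNISR, which encode nucleic acid binding proteins, had -0.08 and -0.13. All 4 were lower with dCas9-VPR in control, with log2 differences of -0.38 (RPL8), -0.31 (RPS14), -0.43 (FUBP1) and -0.90 (PNISR). Their interactions were positive and passed the threshold for RPL8 (0.65), RPS14 (0.41) and PNISR (0.78), but not for FUBP1 (0.36, edgeR adjusted p 0.0647). In the other direction, FUT7, SP7 and ADAM28 started over 200 kb from the nearest predicted site (2939 kb for FUT7 and 1882 kb for SP7), as did KRTAP5-8 (229 kb). A site holds matches of at least 2 guides, and a match of 1 guide alone lay nearer, 2.43 kb from KRTAP5-8 and 84.6 kb from FUT7.

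A further 11 genes, all but PCAT14 named by the study, were all higher with activation. The study deleted the nearest LTR5HS element of 6 of them (CACNA2D2, EPHA7, ALPPL2, NFKB2, SERPINB9 and GDPD1). At 4 others (NBPF12, SLC4A8, FA2H and TIMM50) it detected an appreciable level of transcripts chimeric with LTR5HS. Among its LTR5HS-regulated genes it reported such a level at these 4 only. PCAT14 belongs to neither group and was added here. Both groups of the study come from genes that it found higher with activation and lower with repression in these cells. Their direction is therefore not independent evidence, and PCAT14 was chosen with earlier results of these data known. PCAT14 had 454 and 505 CPM with dCas9-VPR and 1.07 and 0 CPM with dCas9-KRAB. In control it averaged 5.66 CPM with dCas9-VPR and 33.6 CPM with dCas9-KRAB. The control libraries lay between the recruitment groups, with the order of the fusions turned round, and the interaction was 12.25.

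NFKB2, which encodes the p100 precursor of the non-canonical NF-kappaB pathway, had 499 and 600.2 CPM against 25.3 and 25.5 CPM (log2 4.45, SE 0.15, edgeR adjusted p 1e-06). SERPINB9, an inhibitor of granzyme B, had 1596 and 1432 CPM against 20.4 and 12.5 CPM. CACNA2D2, a subunit of voltage-gated calcium channels, had 790.5 and 887 CPM against 13.7 and 15.9 CPM. For these 3 genes the control libraries again lay between, with means of 51.7 and 98.1 CPM for NFKB2, 87.9 and 188 for SERPINB9, and 46.1 and 64.4 for CACNA2D2, lower with dCas9-VPR each time. FA2H, a fatty acid hydroxylase gene, had the next widest difference after PCAT14 (log2 6.98, SE 0.19).

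ALPPL2, an alkaline phosphatase gene of germ cell tumours, had 66.8 and 89.5 CPM against 1.97 and 1.42 CPM, although reads may be shared with its close paralog ALPP. EPHA7, an ephrin receptor gene, had 35.5 and 39.5 CPM against 2.53 and 3.64 CPM. The narrowest spans belonged to TIMM50, a subunit of the mitochondrial inner membrane translocase (2.85), NBPF12 (2.83), SLC4A8, a bicarbonate transporter gene (2.17), and GDPD1 (1.81). Of these 11 genes, 9 were also called in control, each lower with dCas9-VPR; ALPPL2 (edgeR adjusted p 0.349) and EPHA7 (0.062) were not. NBPF12 belongs to a family of near-identical copies and its counts are uncertain.

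**Figure D4:**
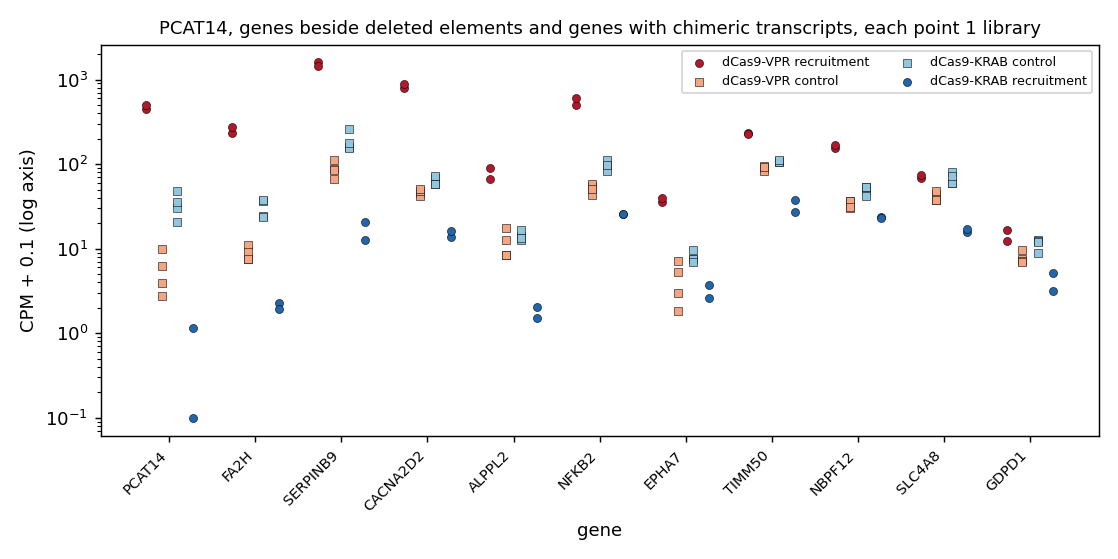
CPM + 0.1 on a log axis for PCAT14, the 6 genes beside deleted elements and the 4 genes with chimeric transcripts detected by the study, each point 1 library. For 8 of the 11 genes all control libraries lie between the recruitment groups. The highest control libraries exceed the lower dCas9-VPR library for SLC4A8 and GDPD1, and the lowest control library lies under the dCas9-KRAB libraries for EPHA7.

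Other genes were called in both contrasts, with unequal sizes. GABRE, a GABA-A receptor subunit gene, had 274 and 342 CPM against 0.562 and 0.135 CPM. It was also higher with dCas9-VPR in control, with means of 5.22 against 0.671 CPM, but its log2 difference was 9.70 in the direct contrast and 2.91 in control (interaction 6.83). RP9P and ZDHHC8P1, both pseudogenes, behaved alike, with 9.01 against 1.75 and 8.86 against 1.08. Both had 1 count in total with dCas9-KRAB recruitment, so the size of these differences is uncertain. SLITRK2, a neuronal transmembrane protein gene, had opposite signs (7.74 and -1.54). The pseudogene ECEL1P2 had them too (8.69 and -2.67, 4 counts in total with dCas9-KRAB recruitment).

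The gene lists below are read beside all tested genes, of which 54.1% were called in the direct contrast (27.9% higher, 26.3% lower), 27.2% were higher in control and 21% had an interaction. Interactions in the lists were counted among genes called in the direct contrast, of which 33% had one. The lists are short, and a share near these values says nothing particular of a list.

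Core pluripotency genes were lower with activation, and to a like extent in control. Of 15 tested, 14 were lower and 0 higher, with a median log2 difference of -2.00, beside -0.00198 for all tested genes. NANOG, a central transcription factor of pluripotency, had a log2 difference of -4.97 (SE 0.20) in the direct contrast and -5.96 in control, and TDGF1, a NODAL co-receptor gene, had -4.28 and -3.75. All 15 were lower in control (median -2.29). All 14 genes called in the direct contrast were called there with the same sign, and 2 of these 14 had an interaction. POU5F1 differed between replicates in both lines, at 9.76 and 28.2 CPM with dCas9-VPR and 41.2 and 112 CPM with dCas9-KRAB. SOX2 had an interaction of -1.28, with log2 differences of -2.49 and -1.20.

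Naive pluripotency genes moved in both directions, with 7 higher and 5 lower of 13 tested. TFCP2L1, a transcription factor of naive cells, had 188 and 231 CPM with dCas9-VPR against 30.3 and 27.6 CPM. TBX3 had a log2 difference of 4.93, and was also higher in control (3.10), with an interaction of 1.83. DPPA3 (-4.51, and -6.28 in control) and KLF4 (-1.89, and -3.11 in control) were lower. Of the genes called in the direct contrast, 9 had an interaction. Of 8 primordial germ cell genes, 1 was higher and 5 lower. In control 5 of 8 were lower (median -1.08), and 4 of the called genes were called there with the same sign. DAZL, an RNA-binding protein gene of germ cells, had the largest difference of those named (-7.38, SE 0.80, 1 count in total with dCas9-VPR). KIT, a receptor tyrosine kinase gene, had -2.04.

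Mesoderm and endoderm genes were higher, 7 of 9 tested, with a median of 3.35 and a control median of 1.51. In control 5 of 8 were higher, and only 1 called gene, EOMES, had an interaction. HAND1, a mesodermal transcription factor gene, had a log2 difference of 3.68 and 4.48 in control, without an interaction (edgeR adjusted p 0.445). EOMES, another such gene, had 3.51 and an interaction of 4.40. Trophoblast genes had 4 higher and 1 lower of 7, among them CDX2 (4.20, interaction 3.55) and GATA3 (2.40, and 2.41 in control). In control 3 of 6 trophoblast genes were higher. Early neural genes had 2 higher and 5 lower of 12 (58.3% called, near the share of all genes), with ZIC2 at -4.18 and OTX2 at -2.80. Their median was -0.62, and in control 6 of 12 were lower with a median of -1.03. Of the called early neural genes, 5 were called in control with the same sign, and 1 had an interaction.

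Secreted cystatins, which lie in a cluster on chromosome 20, were all higher: 5 of 5 tested, with a median log2 difference of 10.34, or 5.72 with CST4 and CST5 at their lower bounds. CST2 had 288 and 281 CPM with dCas9-VPR against 0.281 and 0.135 CPM. CST3 was higher by 1.66 and was also called higher in control. Of the 5 genes, 2 had an interaction (CST1 and CST3). For CST4 and CST5, with 0 counts in all dCas9-KRAB libraries, it did not pass the threshold. CST1, CST2 and CST4 are close in sequence, so reads may be split between them. The interaction of CST2 did not pass the threshold (6.29, edgeR adjusted p 0.104); LTR5HS Sa dCas9-VPR replicate 1 held 39 CST2 counts and the other 3 dCas9-VPR control libraries 3 to 6, and without it the interaction passed (7.71, edgeR adjusted p 0.00295). All 3 tested alkaline phosphatase genes were higher, with a median of 5.52, and ALPL, which lay 4079 kb from a predicted site, had 445 and 556 CPM against 60.8 and 79.1 CPM.

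Genes of the integrated stress response, which raises amino acid synthesis and chaperones under stress, were lower in 11 of 14 cases and higher in 1, with a median of -1.34. CHAC1 had a log2 difference of -3.68, PSAT1 -2.82 and DDIT3 -2.81. Their control values were -2.37, -1.59 and -1.91, and 11 of 14 were lower in control. Proliferation genes were lower in 9 of 10 cases (median -0.92; control 6 of 10, median -0.58). TOP2A had -1.53 and CDK1 -1.76, and 5 of the 9 called genes had an interaction. Reference genes did not hold level either, with GAPDH at -1.02, PPIA at -0.96, HPRT1 at -0.80 and ACTB at 0.63.

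Among 11 tested p53 targets, 5 were higher and 3 lower, in no common direction. CDKN1A, a cell cycle inhibitor gene, had 3.03 (4.21 in control), and GDF15 -4.82 (-2.72 in control). Of 13 NF-kappaB pathway genes, 5 were higher and 2 lower, and 5 of the called genes had an interaction. The share called was 53.8%, near that of all genes. NFKB2 lay 3.69 kb from a site, TNFAIP3, a feedback inhibitor gene, 22.2 kb (log2 2.93, and -0.07 in control) and NFKBIE, another inhibitor gene, 62.9 kb (2.46, and 0.34 in control). ICAM1, a target gene of the pathway 486 kb from a site, had -0.88, and its call was lost without dCas9-VPR recruitment replicate 2 (-0.53) or without dCas9-KRAB recruitment replicate 1 (-0.81).

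Interferon-stimulated genes had 3 higher and 2 lower of 10 tested (50%, near the share of all genes), whereas 6 of 9 were higher in control. MX1, an antiviral GTPase gene 4.97 kb from a site, had a log2 difference of 6.76 (2 counts in total with dCas9-KRAB recruitment). BST2, which encodes tetherin, was lower in the direct contrast (-0.86) and higher in control (1.30), with an interaction of -2.15. MHC class I genes had 2 higher and 1 lower of 7 (42.9%, below the share of all genes), and 6 of 8 higher in control.

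Retroelement silencing genes had 2 higher and 6 lower of 16 (50%, near the share of all genes). DNMT3B, a de novo DNA methyltransferase gene, had -2.60 (-2.47 in control), and MPHOSPH8, a subunit of the HUSH complex 33 kb from a site, had 1.84 (-0.07 in control). TRIM28 did not pass the threshold, at 594 and 774 CPM against 666 and 992 CPM. Transcriptional coactivators had 3 higher and 1 lower of 12 (33.3%, below the share of all genes). MED14, a Mediator subunit gene, had -2.07 and -1.90 in control.

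**Figure D5:**
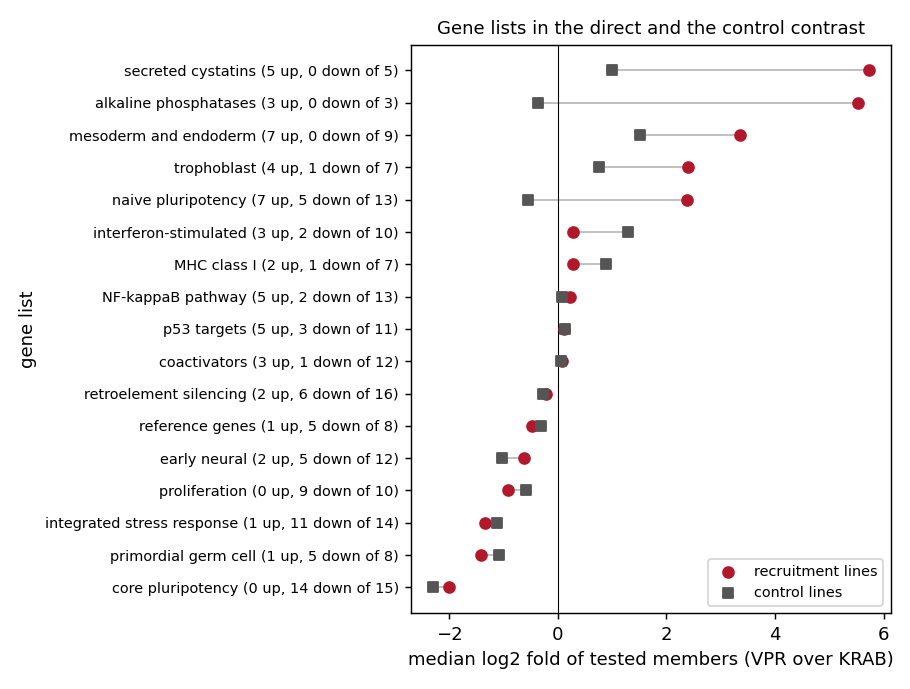
Median log2 fold of dCas9-VPR over dCas9-KRAB over the tested members of each gene list, for recruitment lines (circles, genes at 0 counts in an arm at their lower bound) and control lines (squares), with the numbers called higher and lower in the direct contrast. Core pluripotency lies at -2.00 and -2.29, whereas alkaline phosphatases lie at 5.52 and -0.36.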

How the data were processed

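RNA-seq libraries of 6 NCCIT lines with 2 replicates each were used. According to the methods and the submitters' processing notes, the authors used CASAVA 1.8, trimmed reads with cutadapt 1.8.1, aligned them with HISAT2 2.1.0 to hg38 and counted them per gene with featureCounts 1.4.6-p2. The annotation, strand setting and treatment of multimapping reads were not given in the sources used here. The authors deposited unnormalized counts for 26641 genes, with gene lengths.

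Groups came from the sample titles. Genes were tested with edgeR 4.0.16 (R 4.3.3): filterByExpr, TMM and the quasi-likelihood test, with Benjamini-Hochberg adjustment at 0.05. The direct contrast used 4 libraries, the control contrast 8 and the interaction 12. A positive log2 value is higher with dCas9-VPR. SE is the log2 difference divided by the square root of its F statistic. The replicates were described as independent biological ones. Guide sequences came from the supplementary material of the study and were matched to GRCh38 without mismatch. Distances run from the canonical start in GENCODE 44 to the centre of the nearest site, for 24316 genes (91.3%), 1264 of them matched by an older symbol. Names in date form (28 genes) were tested and not named. The scripts were tested on simulated data.

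The comparison, gene lists and named genes were chosen with earlier results of these data known. Named genes were the 10 highest and the 10 lowest called genes with a mean of at least 5 CPM that were not called in control, 3 called in both with the same sign and 3 with opposite signs, genes beside deleted elements or with chimeric transcripts and PCAT14, up to 4 called genes per list, the 4 highest over 200 kb from a site, and the 4 most abundant uncalled genes within 10 kb. TFCP2L1, KLF4, SOX2, POU5F1, TRIM28, COL1A1, COL1A2, COL3A1, PDGFRB, LUM, DCN, HBB and CST3 were named as list or marker members after their values were seen. Alternatives were DESeq2 1.42.0 and its size factors, testing without a filter, requiring 10 counts or more in each library, all 12 libraries in one fit, the replicate block, array as covariate, each control array alone, a threshold of 0.01, other sites and distances, and leaving out each library. Repeat transcripts were not analysed here.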

Additional observations from a re-analysis of the deposited data

Results flagged for a closer look

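A difference between the direct and the control contrast, tested as the interaction of recruitment and fusion, was found for 3505 genes, and for the following of the genes named by the rules on span, direction and distance. Among the genes highest with dCas9-VPR, the interaction on the log2 scale was 10.98 for SPHKAP, 10.35 for HPGD, 9.90 for FUT7, 9.66 for CST1, 9.52 for BCRP3, 9.18 for KRTAP5-8, 8.87 for GBP1, 8.58 for ADAM28 and 7.79 for SP7. Among those lowest it was -4.89 for SHISA3, -4.83 for LOC101929224, -2.66 for GADD45G, -2.64 for IL16, -2.53 for TAGLN3, -2.49 for THRB, -2.46 for C1QL4, -2.39 for HDAC9, -2.23 for RND1 and -2.21 for IGIP.

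Genes called in both contrasts with the same sign had interactions of 7.87 (ZDHHC8P1), 7.33 (RP9P) and 6.83 (GABRE). Those with opposite signs had 12.25 (PCAT14), 11.39 (ECEL1P2) and 9.28 (SLITRK2). Beside deleted elements the values were 7.61 for SERPINB9, 6.31 for CACNA2D2, 5.80 for ALPPL2, 5.36 for NFKB2, 4.47 for EPHA7 and 2.37 for GDPD1, and for genes with chimeric transcripts 8.76 for FA2H, 3.39 for NBPF12, 3.08 for TIMM50 and 2.85 for SLC4A8. Of the abundant genes near a site that were not called in the direct contrast, RPL8 had 0.65, RPS14 0.41 and PNISR 0.78. Interactions of genes at or near 0 counts in a group depend on the prior count and are no bound. Outlying samples were not tested, since each line had 2 libraries.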

How the results depend on the processing

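The number of genes called in the direct contrast was between 6067 (threshold of 0.01) and 11204 (replicate block) under all alternatives, beside 8642, and the share of higher genes among the calls between 50.4% and 53.9%. With the threshold of 0.01, 3617 calls were shared with control and 1944 genes had an interaction. Called higher genes near predicted sites numbered 141 within 10 kb and 1037 within 200 kb, in place of 485 within 50 kb, because the limit itself sets how many genes are counted. Leaving out 1 library gave 6723 to 8281 direct calls, 7343 to 8749 control calls, 4516 to 5698 shared calls and 2393 to 3549 interactions. Without LTR5HS Sa dCas9-VPR replicate 1, an alternative chosen after seeing the data for the 10 genes highest with activation, the control difference of CST1 turned to -0.68 (not called either way), HPGD passed in control (-1.38) and CST2 had an interaction (7.71). Library totals without TMM scaling, an alternative chosen after seeing the data, gave 8600, and scaling moved the median of all genes to between -0.002 and 0.005. DESeq2's Wald test gave 7542.

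Of 1070 values of 100 named genes under the alternatives, 1057 kept their direction and side of the threshold, 11 lost the call and 2 gained one, and none changed direction. Calls were lost for TAPBP, DDX58, KAT2B, ICAM1 and CXCR4. RPL8 passed the threshold with the replicate block (0.26) and without dCas9-KRAB recruitment replicate 2 (0.34). The labels do not say what a shared replicate number means. Differences between replicates were correlated between both recruitment lines (Pearson's r 0.428), and with the replicate block 11204 genes were called, which held all 8642. Differences under the floor of 3 counts were not detectable at this depth.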

Other observations

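OAS3, which encodes an enzyme that senses double-stranded RNA, was higher with dCas9-VPR in control (log2 3.53, edgeR adjusted p 1.05e-05) and not in the direct contrast (0.02, edgeR adjusted p 0.975), with an interaction of -3.50. B2M, the light chain of MHC class I, had 1.33 in control and -0.19 in the direct contrast, with an interaction of -1.51. Both genes were picked from the gene lists after their values were seen.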
